A study of Mus musculus with 65 samples.

Results

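The comparison set p3 progenitors against pMN progenitors of the ventral neural tube after the same exposure to 500 nM SAG. Its members are the 5 p3 libraries and the 5 pMN libraries of days 5 and 6 at that concentration, 10 of the 65 libraries of the study, and they were taken by their labels. The study differentiated HM1 mouse embryonic stem (ES) cells to spinal cord progenitors, gave retinoic acid and a range of SAG concentrations, and sequenced RNA of each sorted cell type. SAG is a Smoothened agonist that stands in for the ligand Sonic hedgehog (Shh). All 10 libraries share the cell line, the earlier steps with FGF, a Wnt pathway agonist and inhibitors of TGF-beta and BMP signalling, 100 nM retinoic acid and 500 nM SAG from day 3 onwards. After fixation and intracellular antibody staining, SOX2-positive progenitors were sorted, p3 as positive for NKX2.2 and negative for OLIG2, and pMN as positive for OLIG2, with cells positive for both left out. PAX6 and NKX6.1 belonged to the same antibody panel. Day 5 gave 3 libraries of each type and day 6 gave 2. The labels of these libraries give replicate numbers only, so the spread between samples may be partly technical. The p-values of the main test set each change against a spread pooled over all 65 libraries of the study, not these 10 alone. All cells came from a single ES cell line in culture, with no notochord or floor plate beside them, so the comparison describes that line in this protocol.

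In the embryo, the p3 domain lies next to the floor plate and forms V3 interneurons, or visceral motor neurons in the hindbrain, while the neighbouring pMN domain forms somatic motor neurons. NKX2-2 and OLIG2 are transcriptional repressors that shut each other off, so a progenitor settles on either the p3 or the pMN state. Because the sort itself used the 2 proteins, the RNA of their genes describes the gate and is no result of the comparison.

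Values are normalised reads, which are reads per gene divided by the authors' size factor for the library. The 10 libraries held 9029292 to 13175196 reads and showed 11493 to 14088 genes with at least 1 read. Detection was uneven, in that 9.74% of the 13964 genes tested had 0 reads in 1 or more p3 libraries and at least 100 normalised reads in another, as did 15.5% across the pMN libraries. The day 6 p3 library of replicate 3 had the most genes detected, 14088, and held the highest of the 10 values for 1518 of the genes tested. It is named below beside some of the results that rest on it, though not beside all. Differences were tested with limma on log2(normalised reads + 1) with day as a block, and a gene was called at an adjusted p below 0.01 with more than a 2-fold change. Called, here and below, refers to this limma test. The tools edgeR and DESeq2 were run on the 10 libraries alone. Of the 14 genes called by limma, edgeR lost 13, which is not repeated beside every gene. Where the tools otherwise differed for a gene that a statement turns on, this is given beside it. For a gene at 0 in some libraries the log2 change depends on the added 1 and can be larger or smaller than the ratio of the means.

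The gate genes followed the sort. Nkx2-2 (chr2:147177546-147186402 in the mouse build mm10) had 196, 146 and 121 on day 5 and 211 and 236 on day 6 in p3 and 50.1, 0 and 98.1 on day 5 and 5.41 and 0 on day 6 in pMN. Every p3 library lay above every pMN library, and the gene was low even in p3. Olig2 (chr16:91225550-91228677) had 775, 769 and 435 on day 5 and 975 and 673 on day 6 in p3, against 3295, 2172 and 4266 on day 5 and 4442 and 6214 on day 6 in pMN. Olig2 RNA was thus 5.62-fold higher on average in pMN and was still present in every library sorted as p3. Limma did not call this gate gene (log2 change -2.45, adjusted p = 0.764), although its values did not overlap. It was called by edgeR (adjusted p = 0.00432) and DESeq2 (9.98e-16). A missing limma call is therefore no evidence that a gene was alike in the 2 cell types. Sox2, which marks neural progenitors of all domains, had 1422 to 2479.8 (median 2028) in p3 and 841 to 2151 (median 1804) in pMN. Nkx6-1, shared by p3, pMN and p2, had 387 to 769.7 (median 565) in p3 and 344 to 676 (median 579) in pMN. For both genes the ranges of the 2 cell types overlapped. The log2 changes were 0.33 (SE 0.31) and 0.09 (SE 0.75), and that of Nkx6-1 changed sign without D5 p3 replicate 2, D6 p3 replicate 3 or D6 pMN replicate 1. Nkx2-2 is overlapped on the opposite strand by the antisense gene Nkx2-2os, and since the library kit does not mark strand, reads of such partners cannot be told apart.

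**Figure D1:**
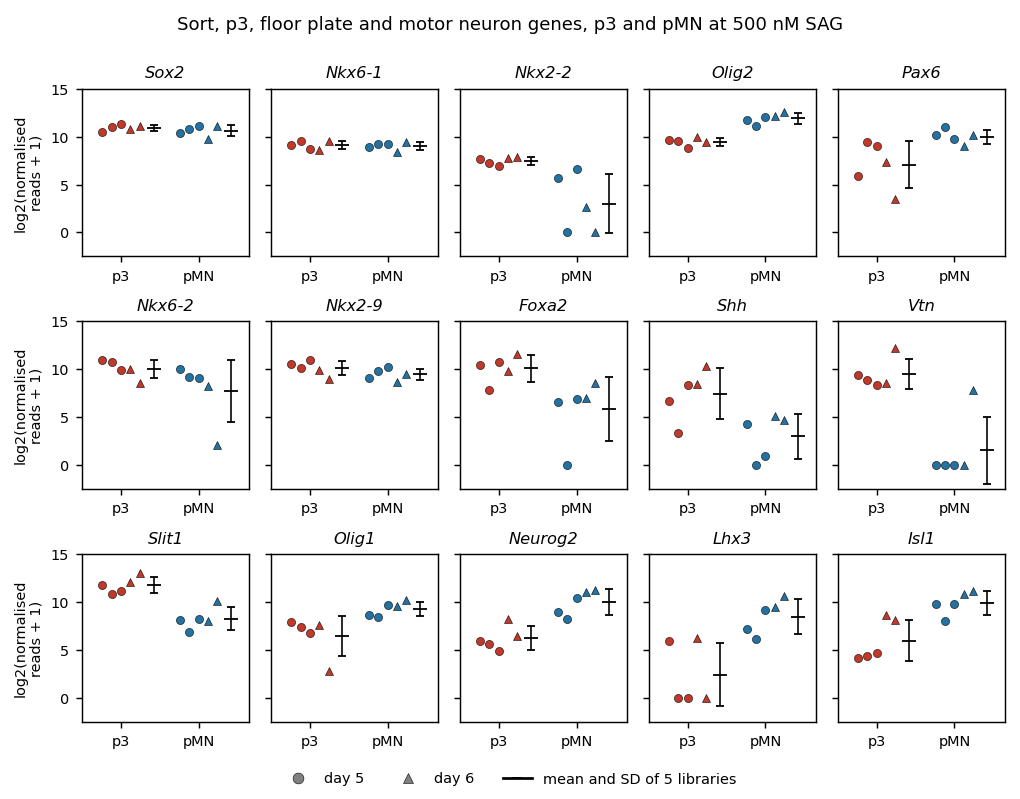
Each panel plots log2(normalised reads + 1) of 1 gene (vertical axis, a log scale) in the 5 p3 (red) and 5 pMN (blue) libraries at 500 nM SAG, circles for day 5 and triangles for day 6, with the mean and SD of the 5 log2 values beside them. Sox2 and Nkx6-1 overlap between the cell types, Slit1 and Vtn are higher in every p3 library than in any pMN library, and Olig1, Olig2 and Neurog2 are lower in every p3 library.

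Few genes passed the test, and they split evenly by direction. Of 13964 genes tested, 14 were called (0.100%), 7 higher in p3 (0.0501%) and 7 lower in p3 (0.0501%). Sphkap, Dbh, Tmem47, Igsf9b, Ednrb, Ntn1 and Cacna1g rose in p3 relative to pMN, and Slc2a1, Emid1, Slc39a14, Sfrp2, Hes5, Rgs8 and Pax6 fell. The median log2 change over all genes tested was 0.09. An unadjusted p under 0.05 was met by 921 genes, and the typical SE of a log2 change was 0.91. Counting separation without any model, 175 genes (1.25%) had no overlap between the 5 p3 and the 5 pMN values, 98 higher in p3 (0.702%) and 77 lower (0.551%). Of the called genes 5 in each direction were among those 175, and the other 4 (Sphkap, Dbh, Slc39a14 and Pax6) had overlapping values. The number called depended on the tool and on the libraries fitted, which changed together, since edgeR and DESeq2 used the 10 libraries alone. DESeq2 called 94 genes, 12 of the 14 among them, edgeR's quasi-likelihood test called 4 (Igsf9b, Neurog2, Olig2 and Slit1) with only Igsf9b shared, and limma on the 10 libraries alone called 0 with 1026 at an unadjusted p under 0.05. Dbh, Emid1, Slc2a1, Sphkap, Ednrb, Igsf9b, Sfrp2 and Tmem47 were called whichever day 5 library was left out. Leaving out D6 p3 replicate 3 left 1 library in its group. The log2 changes of Dbh, Emid1, Slc2a1 and Sphkap were then 4.55, -1.39, -1.20 and 4.17. For Sphkap and Dbh this is a weak check, since the spread was pooled over all 65 libraries. Those include the p2 and p0-1 libraries described below, where both genes had 0 reads. On the 10 libraries alone, limma gave Sphkap and Dbh adjusted p values of 0.551 and 0.396. There edgeR gave 0.511 and 0.485, while DESeq2 called both.

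The 7 genes that rose in p3 code for a secreted guidance cue, membrane proteins, a receptor, a channel, an enzyme and an anchoring protein. Ntn1 (chr11:68209364-68386826) encodes Netrin-1, a guidance cue made by the floor plate and the ventral progenitors beside it. It had 3762, 2845 and 4552 on day 5 and 4741 and 9795 on day 6 in p3 and 1008, 2019 and 830.5 on day 5 and 970.0 and 1514 on day 6 in pMN. All p3 values exceeded all pMN values, with the highest in D6 p3 replicate 3, and the mean was 4.05-fold higher in p3 (log2 change 1.97, SE 0.37, adjusted p = 0.00346). Igsf9b (chr9:27299104-27357549), an immunoglobulin-family adhesion protein, was abundant in both cell types. In p3 it had 11741, 9760.2 and 8760.5 on day 5 and 6475 and 11469 on day 6, in pMN 4015, 3956 and 2768 on day 5 and 2551 and 3362 on day 6. The groups did not overlap, with log2 changes of 1.50 on day 5 and 1.56 on day 6 (log2 change 1.53, SE 0.26, adjusted p = 0.000833 over both days). Ednrb (chr14:103814615-103844476), the endothelin B receptor, which is also found on radial glia, read 10742, 8280.4 and 10517 on day 5 and 8837 and 12117 on day 6 in p3 and 4099, 4654 and 5079 on day 5 and 4162 and 1999.8 on day 6 in pMN. It was high in both cell types and 2.53-fold higher on average in p3 with no overlap (log2 change 1.39, SE 0.25, adjusted p = 0.0023).

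Tmem47 (chrX:81070644-81097875), a membrane protein of cell junctions, was at 2035, 3210.3 and 4140.1 on day 5 and 2727 and 6059 on day 6 in p3 and at 1224, 1098 and 1204 on day 5 and 669 and 893 on day 6 in pMN, again without overlap (log2 change 1.77, SE 0.30, adjusted p = 0.000832). Cacna1g (chr11:94408391-94474198), the T-type calcium channel subunit Cav3.1, stood at 1489, 1603 and 1045 on day 5 and 1114 and 2773 on day 6 in p3 compared with 120.3, 169 and 216 on day 5 and 68.7 and 538 on day 6 in pMN. The p3 mean was 7.21-fold above the pMN mean, the largest ratio among the 5 genes that rose and had reads in both types (log2 change 3.10, SE 0.60, adjusted p = 0.00524). Sphkap and Dbh were different in kind, since both had 0 reads in every pMN library and were uneven in p3. For Dbh (chr2:27165507-27183204), dopamine beta-hydroxylase of noradrenaline synthesis, p3 had 140.0, 135 and 43.8 on day 5 and 0 and 136 on day 6, so 1 of the p3 libraries lacked it. The p3 mean was at least 33.2-fold higher than a floor of 3 reads per pMN library (adjusted p = 0.000832). Sphkap (chr1:83255444-83408200), which anchors protein kinase A, had 195, 0 and 0.859 on day 5 and 143 and 265 on day 6 in p3. It was thus present in 3 of the p3 libraries, at the value of 1 read in D5 p3 replicate 3 and absent from D5 p3 replicate 2, with a mean at least 44.1-fold above the same floor (adjusted p = 0.000177).

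The 7 genes that fell in p3 include a glucose transporter, a Wnt antagonist, a Notch effector and Pax6. Slc2a1 (chr4:119108745-119137329) encodes GLUT1, the main glucose transporter of neural progenitors. It had 4684, 4014 and 5117 on day 5 and 5301 and 3491 on day 6 in p3 and 12897, 11225 and 7762 on day 5 and 11634 and 13750.2 on day 6 in pMN. Every p3 library lay below every pMN library, and the pMN mean was 2.53-fold higher (log2 change -1.33, SE 0.20, adjusted p = 0.000177). Emid1 (chr11:5106265-5152230), a secreted protein with an EMI domain, had 1719, 2182 and 1739 on day 5 and 2692 and 1253 on day 6 in p3, whereas pMN had 6115, 6004 and 4687 on day 5 and 4855 and 5769.7 on day 6. The groups were separate on both days, with log2 changes of -1.57 on day 5 and -1.53 on day 6 (adjusted p = 0.000209 over both). Sfrp2 (chr3:83766321-83774314), which binds Wnt proteins outside the cell, gave 831, 968 and 1028 on day 5 and 836 and 635 on day 6 in p3 and 2174, 1891 and 1833 on day 5 and 3686 and 2181 on day 6 in pMN. The p3 values were close together and all below those of pMN (log2 change -1.42, SE 0.26, adjusted p = 0.0023). Slc39a14 (chr14:70303467-70351424), the metal ion transporter ZIP14, had 1345, 1580.4 and 875 on day 5 and 2394 and 1058 on day 6 in p3 and 3799, 2354 and 2292 on day 5 and 4882 and 5388 on day 6 in pMN. Here D6 p3 replicate 1 reached into the pMN range, and the change was -1.37 (SE 0.24, adjusted p = 0.00189).

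Pax6 (chr2:105668896-105698410), a homeodomain factor of progenitors dorsal to p3, was also a protein of the antibody panel. Its p3 values were 60.4, 717 and 525 on day 5 and 157 and 10.2 on day 6, and its pMN values were 1129, 2054 and 848 on day 5 and 503 and 1147 on day 6. D5 p3 replicates 2 and 3 lay within the pMN range, while the other 3 p3 values lay below all of it (log2 change -2.95, SE 0.60, adjusted p = 0.00886). Rgs8 (chr1:153653037-153697667), a regulator of G-protein signalling, had 75.3, 0 and 0 on day 5 and 0 and 0 on day 6 in p3 and 179.6, 452 and 105 on day 5 and 383 and 608 on day 6 in pMN. It was absent from 4 of the p3 libraries and present in every pMN library (log2 change -6.93, SE 1.35, adjusted p = 0.00542), and DESeq2 did not call it (0.298), nor Pax6 (0.0638). With 1 library left out at a time, the calls of Pax6 and Rgs8 were lost in 6 and 8 of 10 cases, that of Cacna1g in 7, that of Ntn1 in 6 and that of Hes5 in 5. The calls of Igsf9b and Tmem47 were lost only without D6 p3 replicate 3.

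**Figure D2:**
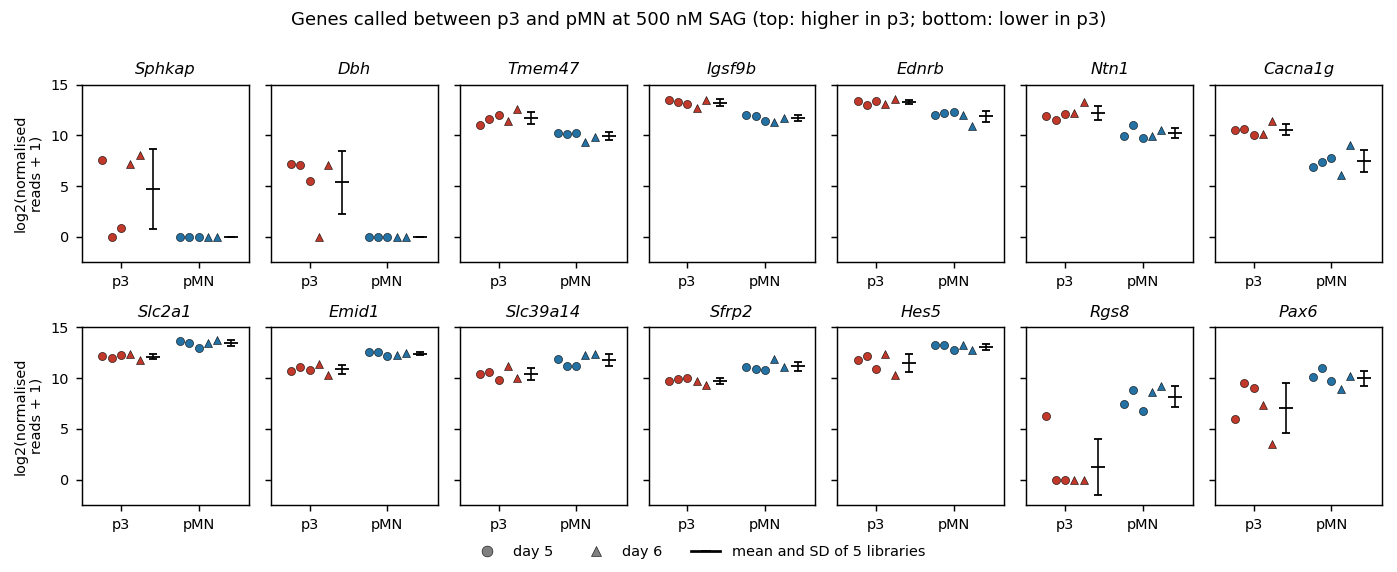
Each panel shows log2(normalised reads + 1) of 1 called gene (vertical axis, a log scale) in the 5 p3 (red) and 5 pMN (blue) libraries, circles for day 5 and triangles for day 6, with the mean and SD of the 5 log2 values at the side of each group. The upper row holds the 7 genes higher in p3 and the lower row the 7 lower in p3, and 10 of the 14 panels show no overlap between the cell types.

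Hes5 (chr4:154960923-154962371) is a bHLH repressor that Notch signalling switches on and that keeps progenitors from differentiating. It had 3522, 4668 and 1897 on day 5 and 5151 and 1246 on day 6 in p3 and 9699, 10061 and 6987 on day 5 and 9739 and 7066 on day 6 in pMN. All p3 values lay below all pMN values, the pMN mean being 2.64-fold higher (log2 change -1.57, SE 0.30, adjusted p = 0.00346). Notch acts on its targets through RBPJ, whose binding sequence TGTGGGAA was searched on both strands of 32851 RefSeq promoter windows (250 bases before to 50 after a gene's start, build GRCm38.p6, which has the coordinates of mm10). The motif was in 1.86% of them, and among the 10 called genes with a window only Hes5 held it. That window is shown because it holds the motif on each strand, with the matches in capitals, starting 226 bases (TTCCCACA, the reverse complement) and 84 bases before the start of the gene.
Hes5 chr4:154960673-154960972, plus strand: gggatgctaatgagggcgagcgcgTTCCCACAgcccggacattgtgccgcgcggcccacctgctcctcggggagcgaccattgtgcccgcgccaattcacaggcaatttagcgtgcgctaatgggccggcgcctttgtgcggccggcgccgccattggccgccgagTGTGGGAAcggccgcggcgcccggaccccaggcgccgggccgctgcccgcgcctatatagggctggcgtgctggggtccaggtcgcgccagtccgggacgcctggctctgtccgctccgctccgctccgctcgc
Rgs8 was the only called gene with CACTTGA, the core bound by NKX2-2, which 3.06% of all windows held. Rgs8 has more than 1 window, and the one with the match belongs to a start inside the gene as the deposited annotation gives it. The motif lies 27 bases after that start, as its reverse complement in capitals, and the window is printed because Rgs8 had the lowest log2 change of the called genes in the NKX2.2-sorted cells.
Rgs8 chr1:153665423-153665722, plus strand: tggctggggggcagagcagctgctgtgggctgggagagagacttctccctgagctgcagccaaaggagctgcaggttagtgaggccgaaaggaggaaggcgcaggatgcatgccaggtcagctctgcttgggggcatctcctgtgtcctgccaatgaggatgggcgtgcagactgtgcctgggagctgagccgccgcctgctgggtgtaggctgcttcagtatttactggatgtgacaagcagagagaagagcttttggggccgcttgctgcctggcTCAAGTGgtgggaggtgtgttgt
CAGATG, the E-box of OLIG2 and proneural factors, was in 17.2% of windows and among the called genes in Rgs8 alone, in another of its windows. The FOXA core TGTTTAC (3.65% of windows) and the GLI core TGGGTGGTC (0.253%) were in none of the windows of the 10. A match is a description of the sequence only, and factor binding was not measured in these libraries.

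Hes5 was the only gene of the Notch pathway called by limma, beside 0.0501% of all genes called lower in p3. Ligands and receptors differed among themselves in direction. Of 21 pathway genes tested, 14 had a negative log2 change, beside 6079 of all 13964 genes tested. No overlap was found upwards for 2 and downwards for 1, beside 0.702% and 0.551% of all genes. The median log2 change was -0.65 beside 0.09 over all genes. The ligand Jag1 had 1914, 1627 and 2214 on day 5 and 1705 and 3804 on day 6 in p3 and 614, 602 and 1014 on day 5 and 48.7 and 1016 on day 6 in pMN. Its values did not overlap, with a log2 change of 2.24 (SE 0.50) that was not called (adjusted p = 0.0264). The receptor Notch2 was at 2164 to 4016 (median 2686) in p3 and 745 to 2108 (median 954) in pMN, also without overlap and without a call (adjusted p = 0.106). The ligand Dll1 and the receptor Notch1, in contrast, had negative log2 changes of -1.40 and -1.33, neither called (adjusted p = 0.174 and 0.154) and both with overlapping values. DESeq2 called both (adjusted p = 0.000495 and 0.00101).

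None of the p3 and V3 factors was called by limma as set here. Nkx2-2, a gate gene, passed with a pseudocount of 10 (adjusted p = 0.000653), with quantile normalisation (0.00335), without a filter (0.0094) and with days weighted equally (0.00792). Of 13 listed, 9 passed the filter on low values, and their median log2 change was 1.73. The list includes the gate gene Nkx2-2, and also Nkx6-1, whose small log2 change reversed without some libraries as given above. Nkx2-9, the close relative of Nkx2-2 that is expressed early in the p3 domain, overlapped between the cell types. It read 1509, 1135 and 1940.4 on day 5 and 952 and 505 on day 6 in p3 and 564, 893 and 1183 on day 5 and 414 and 704 on day 6 in pMN (log2 change 0.64, SE 1.06). Nkx6-2 ranged over 382 to 1999 (median 1069) in p3 and 3.3 to 1025 (median 566) in pMN (log2 change 2.31, adjusted p = 0.841). The V3 determinants Sim1 and Uncx did not pass the filter.

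Floor plate genes were present in the p3 libraries. The paper saw little expression of floor plate markers in its spinal cord conditions up to day 6, compared with floor plate conditions. Of the 21 listed, 16 were tested. Of these 13 had a positive log2 change, beside 55.8% of all genes tested. Limma called 1 (Ntn1), beside 0.0501% of all genes called higher in p3. No overlap was found for 3 (Ntn1, Slit1 and Vtn), all higher in p3, beside 0.702% of all genes. DESeq2 also called Foxa1 (adjusted p = 0.000977), Shh (0.000955), Slit1 (5.91e-15) and Vtn (0.000569). The list median was 1.59, and 1.28 without D6 p3 replicate 3. Foxa2 encodes a forkhead factor expressed in the floor plate, and the paper reports that it opens chromatin at p3-specific elements. Foxa2 had 1365, 232 and 1773 on day 5 and 907 and 3100.3 on day 6 in p3 and 98.6, 0 and 119 on day 5 and 128 and 368 on day 6 in pMN. Its lowest p3 value fell within the pMN range, and the gene was not called (log2 change 4.28, SE 1.76, adjusted p = 0.562). Foxa1 had 125, 39.9 and 167 on day 5 and 68.8 and 552 on day 6 in p3 and was at 0 in 4 of the pMN libraries (adjusted p = 0.0661). Shh, the ligand itself, had 106, 9.54 and 339 on day 5 and 344 and 1335 on day 6 in p3 and 19.2, 0 and 0.876 on day 5 and 33.2 and 25.3 on day 6 in pMN (log2 change 4.46, adjusted p = 0.154), and is overlapped on the opposite strand by 9530036O11Rik.

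Vtn, the matrix protein vitronectin, had the highest positive log2 change among the tested genes of the lists. It had 689.5, 472 and 332 on day 5 and 391 and 4686 on day 6 in p3 and 0, 0 and 0 on day 5 and 0 and 221 on day 6 in pMN. It was detected in every p3 library and in only 1 of the pMN libraries, with a log2 change of 7.94 (SE 1.63) that missed the threshold in limma (adjusted p = 0.0105) and passed it with a pseudocount of 10 (0.00147), quantile normalisation (0.0016) or array weights (0.00347). Slit1, a repellent for commissural axons, had 3495, 1882 and 2244 on day 5 and 4507 and 8301 on day 6 in p3 and 278, 113 and 305 on day 5 and 264 and 1090.0 on day 6 in pMN, with no overlap. It was not called by limma (adjusted p = 0.237) but was called by edgeR (adjusted p = 0.00636) and DESeq2. Spon1, which encodes F-spondin, ranged in p3 from 102 to 7093, and overlapped with the pMN range of 189.9 to 1224. The summed level of the 21 floor plate genes was 14836 to 51036 normalised reads in p3 and 10529.6 to 23333 in pMN. D6 p3 replicate 3 set the upper end and held the highest of the 10 values for 13 of the 16 genes tested. Without it the p3 libraries ended at 25971. In bulk samples more cells of a type and more RNA per cell cannot be told apart, and whether sorted p3 libraries differed in their share of FOXA2-positive cells was not tested.

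Genes of motor neuron formation went the other way. Of 22 listed genes, 20 were tested and 15 had a negative log2 change, beside 6079 of all 13964 genes tested. Limma called 1 (Rgs8), beside 0.0501% of all genes called lower in p3. In 5 (Olig1, Olig2, Neurog2, Onecut1 and Rgs8) every p3 library lay below every pMN library, beside 0.551% of all genes. The median was -1.80, and the list includes the gate gene Olig2. Neurog2, the proneural factor that works with OLIG2 to start motor neuron differentiation, had 58.6, 48.6 and 29.2 on day 5 and 295 and 86.1 on day 6 in p3 and 505, 305 and 1397 on day 5 and 2193 and 2391 on day 6 in pMN. The pMN mean was 13.1-fold higher with no overlap, and limma did not call the gene (log2 change -3.78, SE 0.98, adjusted p = 0.103). It was called by edgeR (adjusted p = 0.00954) and DESeq2 (8.66e-12), and by limma with a pseudocount of 10 (0.00194) or quantile normalisation (0.00898). Lhx3, a LIM homeodomain factor of motor neurons and V2 interneurons, was at 60.4, 0 and 0 on day 5 and 72.4 and 0 on day 6 in p3 and at 139.5, 67.6 and 556 on day 5 and 697 and 1579 on day 6 in pMN. Its change of -6.06 (SE 1.31) had an adjusted p of 0.0189 (0.0011 with a pseudocount of 10), and D6 p3 replicate 1 lay within the pMN range. Isl1 gave 17.5, 19.1 and 24.1 on day 5 and 389 and 278 on day 6 in p3 and 888, 257 and 909 on day 5 and 1793 and 2227 on day 6 in pMN (log2 change -3.93, adjusted p = 0.268 by limma and 1.63e-11 by DESeq2). Olig1 lies beside Olig2 on chromosome 16 and had 6.15 to 245 (median 163) in p3 and 354 to 1167 (median 747) in pMN.

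The median of the proneural genes was also negative. Of 26 listed, 22 were tested with a median log2 change of -1.10, and 0 were called by limma. No overlap was found for 4 (Neurog2, Neurod1, Gadd45g and Srrm4), all lower in p3, beside 0.551% of all genes tested. DESeq2 called these 4, with adjusted p values of 3.8e-05 for Neurod1, 6.29e-06 for Gadd45g and 0.00561 for Srrm4 beside that of Neurog2 above. It also called Nhlh2 lower in p3 (log2 change -6.74, adjusted p = 1.55e-06), which limma did not (adjusted p = 0.154). Neurod1, a later bHLH factor of differentiating neurons, had 61.3, 16.5 and 123 on day 5 and 189 and 117 on day 6 in p3 and 262, 487 and 611 on day 5 and 789 and 1937 on day 6 in pMN. Gadd45g, expressed as progenitors leave the cell cycle, had 2184, 2941 and 1343 on day 5 and 4687 and 3392 on day 6 in p3 and 6986, 5704 and 6244 on day 5 and 6356 and 10682 on day 6 in pMN (log2 change -1.39, SE 0.34, adjusted p = 0.0707). Srrm4, a splicing factor for neuronal exons, ranged over 117 to 535 in p3 and 663 to 1958 in pMN, though its antisense gene Srrm4os overlaps it. Of 28 neuronal genes, however, only Map2 had no overlap and it was higher in p3, beside 0.702% of all genes tested. Map2 had 599, 526 and 686 on day 5 and 669 and 2712 on day 6 in p3. In pMN it had 160.4, 266 and 56.9 on day 5 and 30.9 and 0 on day 6 (adjusted p = 0.0762 by limma and 0.0057 by DESeq2). Cntn2 of the same list had the opposite sign (log2 change -3.85, adjusted p = 0.446 by limma). DESeq2 called Cntn2 lower in p3 (log2 change -5.68, adjusted p = 0.00857). The neuronal list had a median of -0.17, and its summed level was 4693 to 10048 in p3 and 6097 to 18673 in pMN, so these ranges overlapped. Whether neurons that had kept SOX2 entered the gates was not tested.

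Limma called no gene of the Shh pathway. Of 21 pathway genes tested, 0 were called by limma, DESeq2 called the list member Shh as given above, and the median log2 change was -0.21. Ptch1, the Shh receptor and a direct target, had 4238, 4174 and 5309 on day 5 and 2801 and 3541 on day 6 in p3 and 4903, 4304 and 5167 on day 5 and 3799.8 and 5574 on day 6 in pMN. The ranges overlapped and the log2 change was -0.26 (SE 0.30). Gli1, a transcriptional target and effector, had 1023, 1485 and 808 on day 5 and 465 and 202 on day 6 in p3 and 1275, 1962 and 2079.6 on day 5 and 1202 and 1238 on day 6 in pMN (log2 change -1.21, SE 0.70, adjusted p = 0.855). Gli1 had its 2 lowest values in day 6 p3, and Arhgap9 overlaps it on the opposite strand. The endocytic Shh co-receptor Lrp2 was higher in all p3 libraries (460.4 to 1016) than in the pMN libraries (114 to 417), and Rab34, needed for ciliogenesis, was lower (2211 to 3543 against 4003 to 4739). Neither passed the test (adjusted p = 0.721 and 0.703). Over all genes tested, 0.702% were higher and 0.551% lower in every p3 library than in any pMN library.

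Limma called no matrix gene and no cadherin. Of 30 extracellular matrix genes tested, 24 had a positive log2 change, beside 55.8% of all genes tested, with a median of 0.72 (0.51 without D6 p3 replicate 3). That library held the highest of the 10 values for 15 of the 30. Vtn, Lamb1 and Sparc had no overlap, all higher in p3, beside 0.702% of all genes tested. Lamb1, the laminin beta-1 chain, was at 1286, 949.8 and 1384 on day 5 and 289.7 and 1254 on day 6 in p3 and 211, 74.6 and 107 on day 5 and 91.1 and 4.4 on day 6 in pMN (log2 change 3.89, SE 0.84, adjusted p = 0.0187), and DESeq2 called it (1.01e-05). Its lowest p3 value, in D6 p3 replicate 1, was above the highest pMN value. The matrix sum ran from 46430.4 to 97654 in p3, highest in D6 p3 replicate 3 and at most 61540.5 without it, and from 33293 to 43515 in pMN. Of 17 cadherins tested, 13 had a positive log2 change, beside the same 55.8% of all genes. Their median was 1.19, and 1.24 without D6 p3 replicate 3, which was highest for 8 of the 17. Cdh6 and Pcdh8 were higher and Pcdh18 lower in every p3 library, beside 0.702% and 0.551% of all genes. Cdh6 was at 342 to 1958 (median 483) in p3 and 0 to 239 (median 209) in pMN, and Pcdh18 at 35.0 to 384 (median 209) and 465 to 1719.6 (median 552). Among 31 axon guidance genes, Ntn1 was called, beside 0.0501% of all genes called higher in p3. Ntn1, Slit1 and Sema3a had no overlap, all higher in p3, beside 0.702% of all genes. The list median was 0.15, and -0.07 without D6 p3 replicate 3. Sema3a had 0 reads in all pMN libraries but only 0.859 to 158 in p3.

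**Figure D3:**
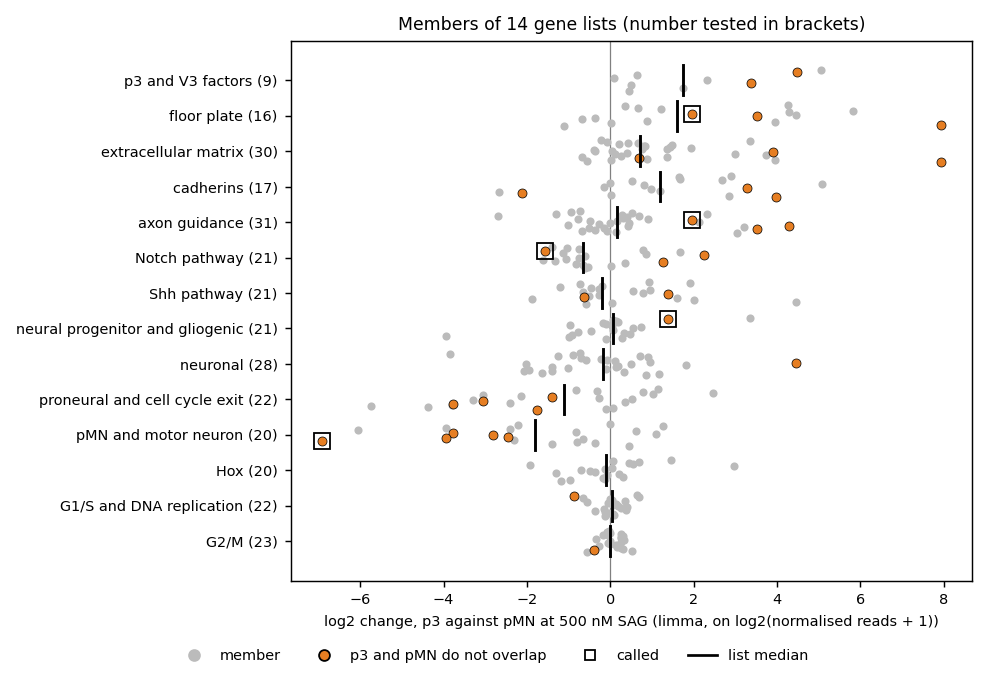
Each point is the limma log2 change of 1 gene between p3 and pMN at 500 nM SAG (horizontal axis), with 14 gene lists on the vertical axis and the number of members tested in brackets, orange where the 5 p3 and 5 pMN values do not overlap, squares for called genes and bars for list medians. The p3, floor plate, matrix and cadherin medians lie to the right of 0, from 0.72 to 1.73, and those of the proneural and motor neuron lists to the left, at -1.10 and -1.80.

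Cell cycle lists had medians near 0. The G1/S and G2/M lists had medians of 0.05 and 0.00 with 0 called. Ccnd2 (cyclin D2) was nevertheless lower in every p3 library, at 7283 to 15597 (median 11657) in p3 and 16338 to 29751 (median 19379) in pMN. Its log2 change of -0.86 (SE 0.15) had an adjusted p of 0.00214 but stayed under the 2-fold limit. Top2a, which untangles DNA in dividing cells, also had no overlap, with 4952 to 6486 in p3 and 6884 to 10897 in pMN. Glycolysis and hypoxia genes had a median of 0.06 over 22 tested, and Slc2a1 was the only member called or without overlap. Sfrp2 was the only called gene of 29 in the Wnt list, whose median was 0.17 and in which Tcf7l1 had no overlap upwards, and Ednrb the only called gene of 21 in the progenitor and gliogenic list. Pax6 was the only called member of 9 dorsal homeobox genes tested. Of the 29 lists, 11 had no called gene and none without overlap, namely Hox, retinoic acid, FGF, BMP and TGF-beta, NMP and mesoderm, endoderm, pluripotency, fibroblast and endothelium, V2 and V1 interneuron, cilium, and stress and immediate early genes. Their medians ran from -0.11 (Hox) to 0.60 (FGF). For every list of this paragraph, the shares over all genes tested were 0.100% called and 1.25% without overlap. A list with neither is thus no sign that its genes were alike in the 2 cell types. As for markers of other cell types, the endoderm list summed to 1145 to 2231 in p3 and 627 to 2959 in pMN, the fibroblast and endothelium list to 109 to 338 and 76.9 to 349. The NMP and mesoderm list summed to 90.4 to 555 normalised reads in p3 and 169.9 to 301 in pMN, with 9 of its 20 genes at 0 in all 10 libraries.

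Single days gave fewer calls. On day 5, with 3 libraries a side, 0 genes were called (619 with an unadjusted p under 0.05), and on day 6, with 2 a side, 5 were called (859). Those 5 were Sphkap, C1qtnf3, Adamts16, Hs1bp3 and Map3k1, all higher in p3. Whether the p3 to pMN difference changed between the days was tested as an interaction, which called 0 genes (500 with an unadjusted p under 0.05, and 1 gene called with a pseudocount of 10). The smallest p was that of C1qtnf3, a secreted C1q and TNF-related protein, with 0 in all day 5 libraries of both types, 511 and 989 in day 6 p3 and 0 in day 6 pMN (adjusted p = 0.104). P2rx4, an ATP-gated channel, and Gna13, a G-protein subunit, came next (adjusted p = 0.508 for each). In day 6 pMN, P2rx4 was at 0 in both libraries and Gna13 at 262 and 0. Of the 14 genes called over both days, all had the same sign on day 5 and on day 6. They were called on the weighted mean of these same differences, so the shared sign is no independent check.

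The most similar comparison in the study, p3 against pMN at 100 nM SAG, uses 12 other libraries of the same days. There 65 genes were called (0.465%). The 100 nM contrast leaned downwards as a whole, with a median of -0.28 over all genes and a negative log2 change in 63.2% of them, beside 0.09 and 55.8% positive at 500 nM. Fewer genes had reads in p3 at 100 nM (10338 to 12543, median 12101) than in pMN there (11649 to 13643, median 13200), while at 500 nM the medians were 13424 for p3 and 12714 for pMN. All 14 genes called at 500 nM had the same sign at 100 nM and 9 were called there too, which is 64.3% of the 500 nM calls and 13.8% of the 100 nM calls. Of the 65 called at 100 nM, 56 had the same sign at 500 nM. For the 175 genes without overlap at 500 nM the same sign was found for 133 (76.0%), beside 51.0% over all genes tested. Across all 13964 genes, which are not independent replicates, Pearson's r between both sets of log2 changes was 0.15.

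Of the 14 genes, Sphkap, Dbh, Igsf9b, Ntn1, Cacna1g, Slc39a14, Sfrp2, Rgs8 and Pax6 were called at both concentrations. Rgs8 was at 0 in all p3 libraries at 100 nM and at 61.2 to 397 in pMN. Igsf9b, with a log2 change of 1.53 at 500 nM, had 1.49 at 100 nM (adjusted p = 0.000141), and Cacna1g had 3.10 and 3.58 (adjusted p = 0.000117). The other 5 were Ednrb (1.00 at 100 nM, adjusted p = 0.0136), Hes5 (-1.02, adjusted p = 0.0357), Emid1 (-0.75, adjusted p = 0.0586), Slc2a1 (-0.63, adjusted p = 0.0514) and Tmem47. At 100 nM Tmem47 read 1457 to 3315 (median 2223) in p3 and 1539 to 3213 (median 2091) in pMN, a log2 change of 0.01 (SE 0.27) against 1.77 at 500 nM. The test of that difference gave an unadjusted p of 6.52e-05 and an adjusted p of 0.128, so it was not called. Nkx2-9 differed the other way, with 573 to 2394 (median 1241) in p3 and 0 to 560.0 (median 159.6) in pMN at 100 nM (log2 change 3.71, adjusted p = 0.0298), and the difference from 500 nM had an unadjusted p of 0.0367 and was not called (adjusted p = 0.514). No gene was called in this interaction (0 by limma, 1272 with an unadjusted p under 0.05), whose median over all genes was 0.41. The smallest p values were those of H6pd, Nmi and Cdc14a (adjusted p = 0.0716, 0.092 and 0.092). For H6pd, an enzyme of the endoplasmic reticulum, 500 nM libraries held 89.3 to 578 (median 144) in p3 and 0 to 199 (median 0.772) in pMN, and 100 nM libraries 0 to 315 (median 0) in p3 and 46.0 to 393 (median 143) in pMN.

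**Figure D4:**
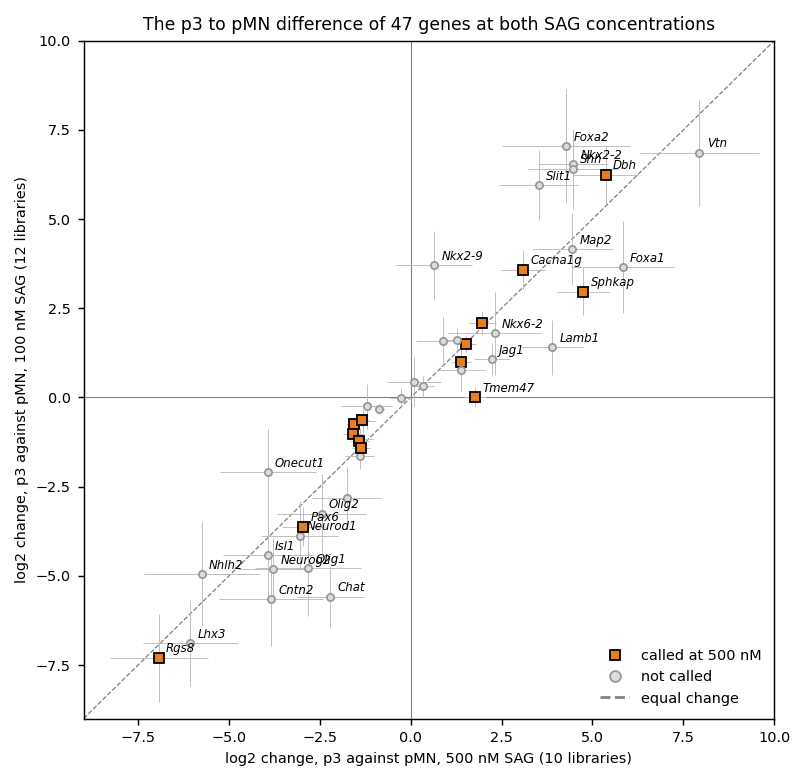
The log2 change between p3 and pMN at 500 nM SAG (horizontal axis, 10 libraries) is plotted against that at 100 nM SAG (vertical axis, 12 libraries) for the 47 genes named for the lists and calls, with standard errors from limma as bars, orange squares for the genes called at 500 nM and a dashed line for equal changes. All 14 called genes have the same sign on both axes, and Tmem47 lies at 1.77 and 0.01.

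In the more dorsal p2 and p0-1 libraries of days 5 and 6, the genes that fell in p3 had different patterns. Slc2a1 had medians of 8602 in p2 and 7527 in p0-1, against 4684 in p3 and 11634 in pMN at 500 nM. Hes5 had 9078 and 5472, against 3522 and 9699. Slc39a14 stood at 4032 and 3871, against 1345 and 3799. Sfrp2 had 3706 and 2333 beside 836 and 2174, and Emid1 3871 and 3324 beside 1739 and 5769.7. The medians of these 5 genes in p2 and p0-1 were all above the p3 median. Pax6 was higher in both dorsal types (4045 and 2771) than in pMN (1129), while Rgs8 was highest in pMN (383, against 142 and 3.22). Of the genes that rose, Dbh and Sphkap had 0 reads in every p2 and p0-1 library of those days, and the highest p2 or p0-1 value of Cacna1g, 1077, reached the lower end of the p3 range at 500 nM (1045 to 2773). Ednrb had medians of 5667 in p2 and 7546 in p0-1, between pMN (4162) and p3 (10517). Those libraries had 0 to 100 nM SAG, so cell type and SAG concentration cannot be told apart here, and these levels are given without a test. On day 4 at 500 nM SAG, Slc2a1 overlapped between the types, with 12022, 8733 and 12754 in p3 and 11475 and 19818 in pMN, and Dbh and Sphkap were at 0 in all 5 libraries.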

How the data were processed

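The authors aligned reads with STAR in an nf-core pipeline to mm10 with ERCC sequences, counted them per RefSeq gene with featureCounts ignoring duplicates, and left out libraries that failed quality criteria. The deposited values are a gene-level signal, reads divided by a size factor per library, and the deposited annotation holds gene positions as other values. The kit used (SMART-Seq HT with Nextera XT) does not mark strand. Dividing by the value of 1 read gave whole reads for 100% of 834400 values above 0 (tolerance 0.001 reads). On the whole reads of the 10 libraries, edgeR 4.0.16 and DESeq2 1.42.0 were run as alternatives to limma 3.58.1 (R 4.3.3).

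The limma model had a mean for each of 25 groups over 65 libraries, a pseudocount of 1, an intensity trend and 13964 genes with a mean of at least 10. Differences within days were weighted 0.6 (day 5) and 0.4 (day 6), the estimate with day as a block. Every adjusted p is Benjamini-Hochberg over all genes tested. The code was tested on simulated data. Genes were named by rule: the sort genes, called members of the gene lists and those each list is known for, up to 15 called genes per direction with a group mean of 100 or more, and the 3 smallest p of an interaction without calls. Adamts16, Hs1bp3, Map3k1 and list members named for lack of overlap were chosen after their values were seen. The comparison and the lists were chosen with earlier results of these data known. Folds against a group at 0 use a floor of 3 reads per library, and such limits cover counting error only, since reads carry no molecular identifiers. No 2 libraries of the 10 were identical (0 pairs). Alternatives were another pseudocount, filter, scaling, weighting, tool, replicate block, day or set of libraries. Results for some genes are not reported here, although list counts and medians include every member.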

Additional observations from a re-analysis of the deposited data

Results flagged for a closer look

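In each group of 5 libraries, the gap between the most extreme value and its neighbour was compared with the range of the group for the 47 genes named for the lists and calls. Of 94 groups, 19 had a value past Dixon's 95% limit, 0.71 for 5 samples. That limit assumes normal values from 1 population, whereas these were normalised reads, not on a log scale, from both days. No chance rate can therefore be set beside the 19, and a group with reads in only 1 library is always flagged. All flags except that of Rgs8 in D5 p3 replicate 1 lay in D6 libraries, so outliers and a difference between days cannot be told apart here. Genes of 1 library are not independent of each other. D6 p3 replicate 3 was the extreme library in 8 of the 19 and D6 pMN replicate 3 in 5.

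In D6 p3 replicate 3 the high values were Ntn1 at 9795, Foxa1 at 552, Shh at 1335, Vtn at 4686, Jag1 at 3804, Dll1 at 1684, Map2 at 2712 and Nhlh2 at 171 normalised reads. They comprise members of the floor plate, Notch, proneural and neuronal lists. In D6 p3 replicate 1, Neurog2 at 295 and Cntn2, an axonal adhesion protein, at 752 stood above the other p3 libraries. Rgs8 was present in p3 only in D5 p3 replicate 1, at 75.3.

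In D6 pMN replicate 3 the high values were Slit1 at 1090.0, Vtn at 221, Chat (choline acetyltransferase of motor neurons) at 409.8, Gadd45g at 10682 and Notch1 at 5883. In D6 pMN replicate 1, Sfrp2 was high at 3686, Foxa1 was present at 54.8 and Lrp2 was low at 114. The cause was not tested for any of these.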

How the results depend on the processing

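The model called 14 genes between p3 and pMN at 500 nM SAG. On the 10 libraries alone the count was 94 with DESeq2, 4 with edgeR and 0 with limma. With all 65 libraries in the limma model it was 25 at an adjusted p below 0.05, 27 with a pseudocount of 10, 0 on day 5 alone and 5 on day 6 alone. It stayed between 11 and 21 with a minimum mean of 100, no filter, equal weight of days, TMM, quantile normalisation or array weights. Leaving out 1 library gave 5 to 19 calls, the fewest without D6 p3 replicate 3 and the most without D6 pMN replicate 1. Where this left 1 library in a group, it was assumed to vary like the other groups. The 10 libraries alone leave few residual degrees of freedom. With 1 library left out, a setting added after the data were seen, 247 to 353 genes had no overlap, since fewer values have to be separate. The replicate block gave 0 calls with the 10 libraries alone and 19 with all 65. Among the named genes the latter gained Jag1 (adjusted p = 0.00159) and Gadd45g (0.00629) and lost Rgs8 (0.0129). Libraries of the same number correlated at 0.0791, 0.0836 and 0.107 on day 5 and 0.0315 on day 6 in their deviations from group means. Each was above those of other numbers, a hint from the data and not the design. On day 6, with 2 libraries a group, the value of the other number (-0.0315) only mirrors that of the same number. The paper compared cell types of the same dish for its chromatin data. As not every same-number correlation exceeded 0.1 and the labels tie no number to a shared culture, the numbers were not taken to pair samples. The interaction with day called 1 gene with a pseudocount of 10 and 0 with a minimum mean of 100 or with the p3 and pMN libraries alone, and the interaction with SAG concentration called 0 in the same 3 settings. Of the named genes, only Nkx6-1 reversed, to -0.01, -0.08 and -0.08 without D5 p3 replicate 2, D6 p3 replicate 3 and D6 pMN replicate 1, within a range of -0.08 to 0.23 over the libraries left out. Depth limits genes with few reads, many of which were at 0 in some libraries of a group.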

Other observations

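Some genes outside the lists separated the cell types by presence. They were picked after their values were seen, and limma called none. AI504432, Myd88, Plcl1, Rftn1, Sema3a (a list member) and Vwa1 had reads in every p3 library and 0 in every pMN library, and Il17rb had reads in every pMN library and 0 in every p3 library. Vwa1, a matrix protein, had 74.4 to 189 normalised reads in p3 (adjusted p = 0.0261). Rftn1, a lipid raft protein, had 12.9 to 173 in p3 (adjusted p = 0.0587).

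Btbd17 had no overlap, at 1771 to 4426 in p3 and 5798 to 17159 in pMN (log2 change -1.65, adjusted p = 0.0147). The secreted peptide Apela had 124 to 500.2 in p3 and was at 0 in 4 of the 5 pMN libraries (adjusted p = 0.154), and the secreted factor Metrnl had 422 to 3615 in p3 and 0 to 229.6 in pMN (adjusted p = 0.305). Cdk6, a cyclin D partner, was higher in every p3 library (1171 to 3861) than in any pMN library (472 to 869), opposite in sign to Ccnd2, and was not called (adjusted p = 0.124).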
